A study of Homo sapiens with 8 samples.

Results

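Adhesion G protein-coupled receptors are surface receptors with a long extracellular part, which holds adhesion domains, joined to the membrane-spanning helices of a G protein-coupled receptor. Most of them cut themselves in a domain next to the membrane, and a short stretch behind the cut then acts as a tethered agonist when the outer part is pulled away by a ligand on another cell or in the matrix. In blood and bone marrow, receptors of the ADGRE group mark myeloid cells, ADGRG1 marks stem and natural killer cells, and ADGRG3 marks neutrophils. The 9 receptors described here were ADGRG1, ADGRG3, ADGRG6, ADGRE1, ADGRE2, ADGRE5, ADGRL1, ADGRL2 and ADGRA3, taken by gene symbol from a count table of 23562 rows, where all 9 had a row. They were chosen by their CPM in these libraries, so the difference between the groups is given for them as a description and not as a test. Of 23 other human genes of the family, counted with the pseudogene ADGRE4P, 14 had a row.

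RNA sequencing was done on OCI-AML5, a human cell line grown from acute myeloid leukemia, in 8 libraries of polyadenylated RNA. There were 4 libraries of cells that received guide RNAs against CEBPD (sgCEBPD 1 to 4) and 4 libraries of cells that received non-specific control guides (sgControl 1 to 4). Every library had its own guide, delivered with Cas9 by the lentiviral vector lentiCRISPRv2. The sources used here do not give the time after transduction, the selection, whether cells were pooled or cloned, or whether a transduction was repeated, so SDs cover the spread between these libraries. CEBPD encodes the transcription factor C/EBP delta.

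Library totals lay between 10217751 and 11521209 counts, so 3 counts amounted to 0.258 to 0.294 CPM (TMM-normalised counts scaled to library size, the unit of all levels below unless a length is named). CEBPD itself stood at 106, 209, 194 and 164 CPM in sgCEBPD 1 to 4, against 202 to 216 CPM in the controls, and its transcript level does not measure editing or protein. The library sgCEBPD 3 stood apart. Its Pearson correlations with the other libraries, across genes and on log2(CPM + 1), were 0.928 to 0.945, against 0.979 to 0.992 among the other 7, and 69.7% of the 13838 genes tested lay above or below all other libraries in it. It is therefore shown apart throughout. Of the 7 myeloid blast markers, CD33 stood at 98.8 to 107 CPM in the 4 sgCEBPD libraries, against 122 to 143 CPM in the controls, and CSF3R averaged 194 CPM in sgCEBPD 1, 2 and 4, was at 417 CPM in sgCEBPD 3 and averaged 299 CPM in the controls. Of the 5 blast markers tested, CD33 and CSF3R were called lower by edgeR without sgCEBPD 3 (adjusted p = 0.0200 and 0.0118), as were 1.31% of all genes. With all 8 libraries edgeR called neither (adjusted p = 0.153 and 0.688). DESeq2 called CD33 with all 8 libraries and both genes without sgCEBPD 3, where it called 301 and 609 of all genes. For CD33 all 4 sgCEBPD libraries lay below all controls, as they did for 4.62% of all genes tested. MPO, CD34 and KIT were at 11.8, 7.84 and 2.45 CPM in sgCEBPD 3, below all other libraries, while ANPEP and CSF2RA stayed at or under 0.472 and 1.08 CPM. Of 10 monocyte and macrophage markers with a row, summed levels were 1035 CPM in sgCEBPD 3, 555 to 709 CPM in sgCEBPD 1, 2 and 4, and 561 to 608 CPM in the controls, and CD68 and C1QB had no row. CSF1R made up 536 CPM of the sum in sgCEBPD 3 and was at 386 to 502 CPM in the other 7 libraries. ITGAM, CD14 and CD163 were at 210, 40.9 and 21.0 CPM in sgCEBPD 3, against at most 21.2, 2.74 and 3.11 CPM in any other library. LYZ, at 80.6 CPM in sgCEBPD 3, lay within the range of the others (36.9 to 189 CPM). In sgCEBPD 3, 5 of the 6 tested markers of this list lay above every other library, as did 34.8% of all genes tested. In bulk RNA, fewer cells of a type and less RNA per cell cannot be told apart.

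The coding sequences of ADGRE2 and ADGRE5 carry a long identical stretch, which is shown first because it limits how well reads of the 2 genes can be told apart. In the GENCODE release 29 transcripts with the longest coding sequence, the identical run was 355 bases long. The last 105 bases of that run and the 45 bases after it are printed 5′ to 3′ on the coding strand, with capitals at the 17 bases where the 2 genes differ. The stretch lies at chr19:14764598-14765669 on the minus strand in ADGRE2 and at chr19:14397793-14401398 on the plus strand in ADGRE5 (GRCh38, introns included).
ADGRE2: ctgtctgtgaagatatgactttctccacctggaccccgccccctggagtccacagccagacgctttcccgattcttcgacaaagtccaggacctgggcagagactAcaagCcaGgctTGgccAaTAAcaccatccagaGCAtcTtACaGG
ADGRE5: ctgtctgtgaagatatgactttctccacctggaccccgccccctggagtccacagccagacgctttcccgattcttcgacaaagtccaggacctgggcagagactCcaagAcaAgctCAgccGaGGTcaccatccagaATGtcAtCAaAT
Of all distinct 50-base words in ADGRE2 transcripts, 7.63% also occurred in ADGRE5, and those words made up 12.3% of the words of ADGRE5. The sources used here do not say how such reads were counted, so the split between this pair is uncertain. ADGRG1, ADGRG3, ADGRG6 and ADGRL2 shared no 50-base word with the transcripts of another gene.

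Per kilobase of annotated exon, the controls ranked ADGRE5 first among the 9, at 22.1 ± 2.50 CPM per kilobase (SD, n = 4, as for the values that follow). ADGRL1 came next at 15.1 ± 0.900 CPM per kilobase, then ADGRE2 at 9.61 ± 1.88 and ADGRA3 at 4.9995 ± 0.262, with no overlap between these neighbours in the order. ADGRG3 stood at 1.40 ± 0.0995 CPM per kilobase. ADGRG6 (0.150), ADGRE1 (0.0802), ADGRL2 (0.0304) and ADGRG1 (0.00805) came last. Control ranges overlapped between ADGRG6 and ADGRE1, between ADGRE1 and ADGRL2 and between ADGRL2 and ADGRG1, while those of ADGRG6 and ADGRL2 did not. Exon lengths are the union of all annotated transcripts of a gene, so genes with long untranslated or rare exons are placed too low.

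**Figure D1:**
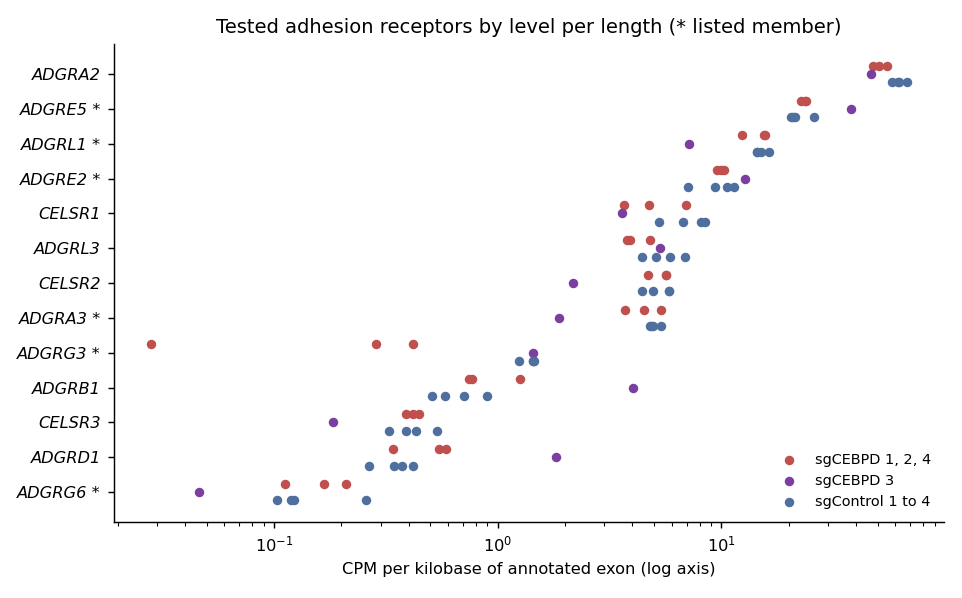
CPM per kilobase of annotated exon (x axis, log scale) for the tested adhesion receptors (y axis), with 1 point per library for sgCEBPD 1, 2 and 4, sgCEBPD 3 and sgControl 1 to 4. ADGRA2 is highest in the controls at 62.3 CPM per kilobase, and ADGRG3 has its lowest point in sgCEBPD 2.

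The listed receptors fell into 3 kinds. ADGRG3 was low in sgCEBPD 1, 2 and 4 and at the control level in sgCEBPD 3. ADGRG1 and ADGRE1 were nearly silent in all libraries but sgCEBPD 3. The other 6 had means in sgCEBPD 1, 2 and 4 between 88.4% and 108% of the control mean, and 5 of these 6 left the range of the other libraries in sgCEBPD 3. A filter on low counts left 6 of the 9 for the fit across all genes, and ADGRG1, ADGRE1 and ADGRL2 did not pass it. With all 8 libraries, edgeR's quasi-likelihood test called 0 of these 6 at an adjusted p under 0.05, where it called 0.0795% of all genes (0.0723% as lower and 0.00723% as higher in sgCEBPD). The 2 groups of 4 libraries did not overlap for 0 of the 6, against 9.59% of all genes (4.62% with sgCEBPD lower and 4.96% with sgCEBPD higher). None had an unadjusted p under 0.05 and DESeq2 called 0. Without sgCEBPD 3 edgeR called 1 of the 6, ADGRG3, where 2.01% of all genes were called (1.31% as lower and 0.705% as higher). Because the members were chosen with these differences known, nothing is read from that count.

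**Figure D2:**
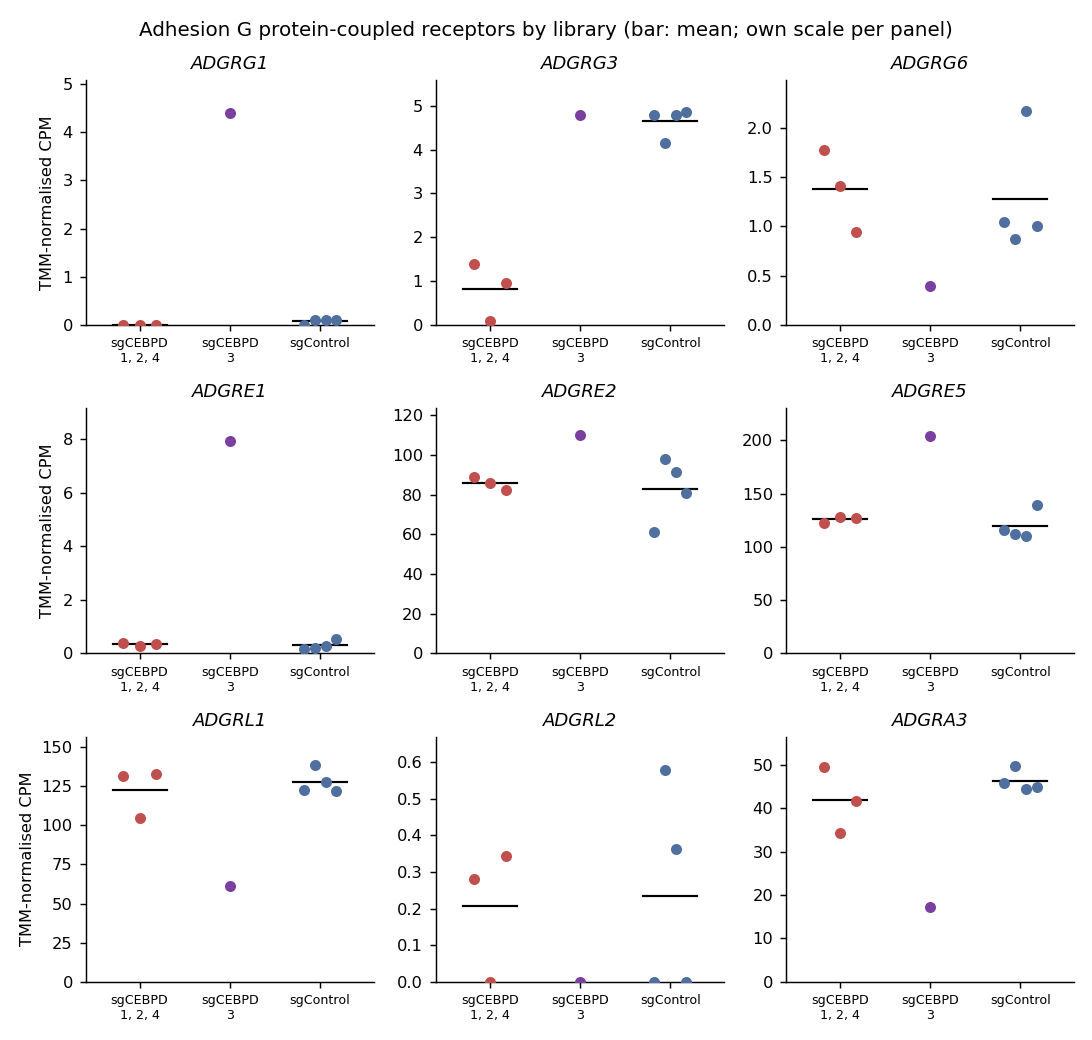
TMM-normalised CPM (y axis, own scale per panel) of the 9 receptors in sgCEBPD 1, 2 and 4, in sgCEBPD 3 and in sgControl 1 to 4. Each point is 1 library and bars are group means; ADGRG3 is low in sgCEBPD 1, 2 and 4 only, while ADGRG1 and ADGRE1 stand above 4 CPM in sgCEBPD 3 only.

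ADGRG3, also known as GPR97, is a receptor of neutrophils and other granulocytes. It stood at 1.40, 0.0943 and 0.948 CPM in sgCEBPD 1, 2 and 4, at 4.80 CPM in sgCEBPD 3, and at 4.80, 4.16, 4.80 and 4.85 CPM in sgControl 1 to 4. The 3 low libraries lay below every control, and sgCEBPD 3 lay among the controls. The mean of sgCEBPD 1, 2 and 4 was 0.814 ± 0.663 CPM (SD, n = 3), which was 17.5% of the control mean of 4.65 ± 0.331 CPM (SD, n = 4). The log2 fold change was -2.49 (SE 0.46) without sgCEBPD 3 and -1.37 (SE 0.71) with it. Without sgCEBPD 3, 14.4% of all genes tested had groups that did not overlap (7.5% lower and 6.89% higher). Among the 7 neutrophil markers with a row, the summed level was 49.1 to 71.7 CPM in sgCEBPD 1, 2 and 4, 192 CPM in sgCEBPD 3 and 54.0 to 55.0 CPM in the controls. MMP9 made up 138 CPM of the sum in sgCEBPD 3. It stood at 3.83, 9.43 and 0.0861 CPM in sgCEBPD 1, 2 and 4 and at 0 to 0.193 CPM in the controls. CXCR1 and CAMP were at or under 0.294 CPM in every library, and FCGR3B, MMP8, LTF, CEACAM8 and CD177 had no row. The 3 tested markers differed in direction: S100A8 averaged 8.11 CPM in sgCEBPD 1, 2 and 4, against 1.03 CPM in the controls, S100A9 5.19 against 1.22 CPM and CXCR2 41.2 against 52.1 CPM. In edgeR without sgCEBPD 3, S100A8 was called higher and CXCR2 lower, and S100A9 was not called (adjusted p = 0.0165, 0.0156 and 0.0606). Of all genes, 0.705% were called higher and 1.31% lower in that fit. DESeq2 without sgCEBPD 3 called CXCR2, MMP9, S100A8 and S100A9, where it called 609 of all genes. With all 8 libraries DESeq2 called 0 of this list. In sgCEBPD 3, S100A8, S100A9 and CXCR2 were at 0.0980, 1.08 and 53.2 CPM. The part of these markers in the ADGRG3 values was not tested.

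The values of ADGRG3 rest on few reads, and guides differed. The counts were 15, 1 and 11 in sgCEBPD 1, 2 and 4 and 49 in sgCEBPD 3, against 43 to 55 in each control. As a share of the 4 controls pooled, these counts amounted to 30.0% in sgCEBPD 1 (95% exact interval 16.5 to 50.7), 2.02% in sgCEBPD 2 (0.0510 to 11.4), 103% in sgCEBPD 3 (73.8 to 141) and 20.3% in sgCEBPD 4 (9.99 to 37.2). These intervals cover counting error only. The lowest ADGRG3 value was in sgCEBPD 2, where CEBPD transcript was at the control level (209 CPM), and the intervals of sgCEBPD 1 and sgCEBPD 4, where CEBPD was at 106 and 164 CPM, overlapped. Of the 7 libraries without sgCEBPD 3, leaving out sgCEBPD 4 or any 1 of the 4 controls raised the adjusted p of ADGRG3 in edgeR to 0.0513 to 0.109, with log2 fold changes of -2.62 to -2.47. The log2 fold change was -3.09 without sgCEBPD 1 and -1.98 without sgCEBPD 2, and the call was kept in both (adjusted p = 0.0373 and 0.0085 in edgeR).

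ADGRG3 lies at chr16:57668187-57689378, next to ADGRG1 (chr16:57610652-57665580), both on the plus strand of GRCh38. The gap between them is 2.61 kb, and they had separate patterns.

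ADGRG1, or GPR56, which binds collagen and transglutaminase and signals through G12/13 proteins, had 45 counts (4.41 CPM) in sgCEBPD 3. In sgCEBPD 1, 2 and 4 it had 0 counts, and in the controls 0, 1, 1 and 1. Pooled over the other 7 libraries that made 3 counts, so the ratio was 113 with a 95% counting interval of 36.2 to 567. Among 6 natural killer and T cell markers with a row, the summed level was 215 CPM in sgCEBPD 3, 9.48 to 64.3 CPM in sgCEBPD 1, 2 and 4 and 22.5 to 79.8 CPM in the controls. In sgCEBPD 3 it came mainly from NCAM1 (151 CPM) and CD3D (52.5 CPM), GNLY was at 0, and CD3E, CD2, KLRD1 and GZMB had no row. The stem and progenitor markers CD34 and KIT were at their lowest in that library, at 7.84 and 2.45 CPM, against 13.4 to 103 and 18.01 to 51.7 CPM in the other 7. The part of these signals in the ADGRG1 level was not tested. In each of the 4 libraries with 0 counts of ADGRG1, the depth allows a level of up to 3 counts.

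The nearest tested protein-coding gene on the far side of ADGRG3 was DRC7, which encodes a subunit of the dynein regulatory complex of cilia. It stood at 1.49, 1.04 and 1.21 CPM in sgCEBPD 1, 2 and 4 and at 1.47 CPM in sgCEBPD 3, against 2.18, 2.71, 1.72 and 1.83 CPM in the controls. All 4 sgCEBPD libraries lay below all controls, as they did for 4.62% of all genes tested, and DRC7 did not pass in edgeR (adjusted p = 0.210 at a log2 fold change of -0.75, SE 0.27, without sgCEBPD 3, and adjusted p = 0.335 at -0.69, SE 0.23, with all 8). An antisense gene annotated over the end of ADGRG3 had no row of its own, and reads from it cannot be told apart without the counting's strand setting.

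ADGRG6, or GPR126, at chr6:142301854-142446266 on the plus strand, is known for its part in myelination by Schwann cells. It stood at 1.77, 1.42 and 0.948 CPM in sgCEBPD 1, 2 and 4, at 0.392 CPM (4 counts) in sgCEBPD 3, and at 1.05, 0.870, 2.17 and 1.01 CPM in sgControl 1 to 4. The library sgCEBPD 3 was lowest of the 8, but counts were at most 24, and the groups overlapped. The log2 fold change was 0.10 (SE 0.38) without sgCEBPD 3 and -0.17 (SE 0.46) with all 8. Its sign also turned when other single libraries were left out, to 0.21 without sgControl 3 with the rest of the 8, and to -0.037 without sgControl 2 and -0.11 without sgCEBPD 1 with the rest of the 7.

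The ADGRE receptors carry epidermal growth factor-like repeats in their outer part and lie on chromosome 19. ADGRE1 (chr19:6887566-6940459, plus strand), the human homologue of the mouse macrophage antigen F4/80, is a marker of eosinophils in humans. It had 81 counts (7.94 CPM) in sgCEBPD 3, against 0.373, 0.283 and 0.345 CPM in sgCEBPD 1, 2 and 4 and 0.174, 0.193, 0.272 and 0.549 CPM in sgControl 1 to 4. Each of the other 7 libraries had at most 6 counts. Pooled over them, the ratio was 25.4 with a 95% counting interval of 15.9 to 41.8. ADGRE4P, a pseudogene of the family 12.04 kb from ADGRE1 on the opposite strand, had 11.4 CPM in sgCEBPD 3, against 0 to 0.345 CPM in sgCEBPD 1, 2 and 4 and 0 to 0.174 CPM in the controls (ratio to the other 7 pooled 79.3, counting interval 42.7 to 163). Among 7 eosinophil, basophil and mast cell markers with a row, the summed level was 292 CPM in sgCEBPD 3, 1.59 to 2.15 CPM in sgCEBPD 1, 2 and 4, and 0.544 to 3.38 CPM in the controls. Of that sum, TPSAB1, a mast cell tryptase, made up 287 CPM. The eosinophil genes CLC, SIGLEC8, EPX and PRG2 were at 1.47, 1.08, 1.08 and 0.490 CPM in sgCEBPD 3, above the other 7 libraries. These were only 15, 11, 11 and 5 counts, against at most 0, 1, 9 and 2 in any other library. These eosinophil genes were not among the genes tested, of which 34.8% lay above the other 7 libraries in sgCEBPD 3. The eosinophil receptor CCR3 did not lie above them, at 0.196 CPM in sgCEBPD 3. It was at 0.283 to 0.431 CPM in sgCEBPD 1, 2 and 4 and 0.0872 to 0.290 CPM in the controls. PRG3, CPA3 and MS4A2 had no row. Whether these cell type signals have a part in the level of ADGRE1 was not tested.

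The promoter window of ADGRE1 is printed because this gene was detected mainly in 1 sgCEBPD library and the guides were directed at a C/EBP factor. The sequence is from RefSeq on GRCh38.p14, chr19:6887329-6887565 on the plus strand, and ends at the base before the GENCODE gene start. Capitals mark the 2 matches to TTNNGNAA, a relaxed form of the C/EBP recognition site, searched on both strands.
ADGRE1: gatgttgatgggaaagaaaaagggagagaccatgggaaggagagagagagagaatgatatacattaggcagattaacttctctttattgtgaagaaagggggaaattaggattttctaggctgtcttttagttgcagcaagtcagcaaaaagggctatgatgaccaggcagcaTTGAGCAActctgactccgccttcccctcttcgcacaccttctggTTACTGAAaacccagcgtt
Such a match occurred in 36.8% of 35116 promoter windows of 300 bases. Windows were found for 5 of the 9 receptors, 14 windows in all. ADGRE1 and ADGRL2 held the motif in 5 of these windows, and none of the 3 windows of ADGRG1 did. The strict palindrome TTGCGCAA, found in 0.151% of all windows, was in none of the 14. The core GAGGAA, bound by the myeloid factor PU.1, was in 1 of them, that of ADGRG6, against 27.9% of all windows. A match in letters is not a site bound in these cells.

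ADGRE2, or EMR2 (chr19:14732393-14778541, minus strand), binds dermatan sulfate and is found on monocytes and neutrophils. It stood at 89.1, 85.7 and 82.6 CPM in sgCEBPD 1, 2 and 4, at 109.9 CPM in sgCEBPD 3, and at 61.0, 97.9, 91.6 and 81.0 CPM in sgControl 1 to 4. The controls spread more widely than the sgCEBPD libraries, with sgControl 1 lowest of all 8. The log2 fold change was 0.051 (SE 0.15) without sgCEBPD 3 and 0.15 (SE 0.16) with it. ZNF333 overlaps the end of ADGRE2 on the other strand and had 245 to 315 counts per library, against 699 to 1122 for ADGRE2.

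ADGRE5, or CD97 (chr19:14380501-14408725, plus strand), is found on most leukocytes and binds CD55 on other cells. It stood at 123, 128 and 127 CPM in sgCEBPD 1, 2 and 4, at 205 CPM in sgCEBPD 3, and at 115, 112, 109.9 and 139 CPM in sgControl 1 to 4. The library sgCEBPD 3 was highest, at 1.72 times the control mean, and the other libraries overlapped (log2 fold change 0.080, SE 0.077, without sgCEBPD 3). Its ligand CD55 was highest in the same library, as were 34.8% of all genes tested. CD55 stood at 115.5 CPM in sgCEBPD 3, against 54.6, 45.7 and 47.7 CPM in sgCEBPD 1, 2 and 4 and 40.6 to 50.9 CPM in the controls. CD55 did not pass in edgeR (adjusted p = 0.521 at a log2 fold change of 0.51, SE 0.29, with all 8 libraries, and adjusted p = 0.705 at 0.090, SE 0.089, without sgCEBPD 3).

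The latrophilins ADGRL1 and ADGRL2 bind teneurins and FLRT proteins and are best known from synapses. They lie at chr19:14147743-14206187 on the minus strand and at chr1:81306160-81992436 on the plus strand. ADGRL1 stood at 131, 105 and 133 CPM in sgCEBPD 1, 2 and 4, at 60.9 CPM in sgCEBPD 3, and at 123, 139, 128 and 122 CPM in sgControl 1 to 4. It was at 47.7% of the control mean in sgCEBPD 3, and sgCEBPD 2 was next lowest. The log2 fold change was -0.056 (SE 0.085) without sgCEBPD 3 and -0.25 (SE 0.22) with it. The antisense gene ADGRL1-AS1 had 84 to 143 counts per library. It was highest in sgCEBPD 3 (13.2 CPM, 135 counts), but only just above sgControl 3 (12.96 CPM, 143 counts). ADGRL2 stood at 0.280, 0 and 0.345 CPM in sgCEBPD 1, 2 and 4, at 0 CPM in sgCEBPD 3, and at 0, 0.580, 0.362 and 0 CPM in sgControl 1 to 4. These were 0 to 6 counts per library, so no difference was detectable at this depth. Of their listed partners, FLRT1 and NRXN2 were at 5.39 and 3.04 CPM in sgCEBPD 3, below the other 7 libraries (5.86 to 10.9 and 4.89 to 9.80 CPM). NRXN3 had 27 counts in sgCEBPD 3 and at most 1 in each of the others. TENM3 was at 0 CPM in sgCEBPD 3 and reached 1.04 CPM in sgCEBPD 2, and FLRT2, FLRT3, TENM1, TENM2 and TENM4 had no row.

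ADGRA3, or GPR125 (chr4:22345071-22516054, minus strand), is an orphan receptor. It stood at 49.5, 34.3 and 41.7 CPM in sgCEBPD 1, 2 and 4, at 17.3 CPM in sgCEBPD 3, and at 45.8, 49.8, 44.4 and 45.04 CPM in sgControl 1 to 4. In sgCEBPD 3 it was at 37.5% of the control mean, and among the others sgCEBPD 2 was lowest, as for ADGRL1. The log2 fold change was -0.14 (SE 0.11) without sgCEBPD 3 and -0.37 (SE 0.27) with all 8 libraries.

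In sgCEBPD 3, ADGRE2 and ADGRE5 thus lay above all other libraries and ADGRL1, ADGRA3 and ADGRG6 below them, 5 of the 6 tested members. Among all genes tested, 34.8% lay above and 34.9% below, so such a position was common in that library.

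Of the 14 other genes of the family with a row, 7 were tested. With all 8 libraries edgeR called 0 of them and DESeq2 called 1, and 4 had an unadjusted p under 0.05 in edgeR. Over all genes, DESeq2 called 301, and 1576 of 13838 had an unadjusted p under 0.05 in edgeR. The median log2 fold change of the 7 was -0.23, against 0.00029 for all genes. Without sgCEBPD 3, 1 fell, where 1.31% of all genes did, and the median was -0.012, against 0.0011. That gene was ADGRA2, or GPR124, a co-receptor for Wnt7 in brain blood vessels, and it had the highest level per length of the tested family. ADGRA2 stood at 336, 387 and 359 CPM in sgCEBPD 1, 2 and 4, at 329 CPM in sgCEBPD 3, and at 476, 441, 409 and 434 CPM in sgControl 1 to 4. All 4 sgCEBPD libraries lay below all 4 controls, as they did for 4.62% of all genes tested. In edgeR its adjusted p was 0.0431 without sgCEBPD 3, at a log2 fold change of -0.29 (SE 0.061), and 0.220 with all 8, at -0.32 (SE 0.073). DESeq2 called ADGRA2 in both fits (adjusted p = 0.0115 with all 8 libraries and 0.00192 without sgCEBPD 3). Over all genes DESeq2 called 301 and 609 in these fits. Of the 7 libraries, leaving out sgControl 1, 2 or 4 or sgCEBPD 1 or 4 ended the call in edgeR (adjusted p = 0.0777 to 0.138).

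The remaining tested family genes did not pass in either fit. ADGRB1, which recognises dying cells, stood at 29.7 CPM in sgCEBPD 3, against 5.50 to 9.22 CPM in sgCEBPD 1, 2 and 4 and 3.75 to 6.57 CPM in the controls. ADGRD1, or GPR133, stood at 26.7 CPM in sgCEBPD 3, against 5.04 to 8.68 CPM in sgCEBPD 1, 2 and 4 and 3.92 to 6.13 CPM in the controls. Without sgCEBPD 3 their log2 fold changes were 0.46 (SE 0.24) and 0.49 (SE 0.22). The planar polarity cadherins CELSR1, CELSR2 and CELSR3 were at 46.2, 26.9 and 2.55 CPM in sgCEBPD 3, below all other libraries in each case. They averaged 65.5, 66.0 and 5.79 CPM in sgCEBPD 1, 2 and 4 and 91.6, 65.1 and 5.85 CPM in the controls, and CELSR1 was nearly as low in sgCEBPD 1 (47.0 CPM) as in sgCEBPD 3. ADGRL3, the third latrophilin, had means of 58.3 ± 8.01 CPM in sgCEBPD 1, 2 and 4 (SD, n = 3) and 78.0 ± 14.9 CPM in the controls (SD, n = 4), with 74.4 CPM in sgCEBPD 3.

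Ligands and membrane partners of the receptors (25 listed, 12 tested) had 0 calls in edgeR with all 8 libraries, with 2 at an unadjusted p under 0.05 and 0 called by DESeq2, and a median log2 fold change of -0.014. Without sgCEBPD 3, 1 fell, where 1.31% of all genes did, 4 had an unadjusted p under 0.05, DESeq2 called 1 and the median was -0.096. Over all genes, 1576 of 13838 had an unadjusted p under 0.05 with all 8 libraries and 2172 of 14047 without sgCEBPD 3, and DESeq2 called 301 and 609. The listed gene that fell was COL4A1, a chain of the type IV collagen that ADGRG6 binds. COL4A1 stood at 4.48, 2.64 and 4.13 CPM in sgCEBPD 1, 2 and 4, against 8.81, 11.02, 8.06 and 12.998 CPM in the controls. Without sgCEBPD 3, its adjusted p in edgeR was 0.0152 at a log2 fold change of -1.44 (SE 0.23). In sgCEBPD 3 it stood at 111.5 CPM, and with all 8 libraries it did not pass (adjusted p = 0.593 in edgeR) at a log2 fold change of 1.58 (SE 1.15), the other direction. CD81, a tetraspanin that associates with ADGRG1, had means of 175 ± 5.34 CPM in sgCEBPD 1, 2 and 4 (SD, n = 3) and 173 ± 13.1 CPM in the controls (SD, n = 4). In sgCEBPD 3 it stood at 213 CPM, above the other 7 libraries.

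None of the 12 tested G protein alpha subunits was called by edgeR in either fit, with 1 at an unadjusted p under 0.05 with all 8 libraries and 4 without sgCEBPD 3, and DESeq2 called 0 and 1 (GNAI1). Their median log2 fold changes were 0.14 and 0.085. Over all genes, 1576 of 13838 and 2172 of 14047 had an unadjusted p under 0.05 in these 2 fits, and DESeq2 called 301 and 609. None of the 9 genes around RHOA was called by edgeR or DESeq2 in either fit, with 2 and 3 at an unadjusted p under 0.05 and medians of 0.12 and 0.045. None of the 7 tested receptor kinases and arrestins was called by either tool, with 1 and 2 at an unadjusted p under 0.05 and medians of 0.066 and -0.026. GNA12 and GNA13, the G proteins that pass signals from adhesion receptors to RHOA, had log2 fold changes of 0.084 (SE 0.067) and 0.087 (SE 0.054) without sgCEBPD 3. RHOA and its exchange factor ARHGEF1 had ones of 0.096 (SE 0.036) and 0.045 (SE 0.049). These 4 genes reached adjusted p = 0.224 at the lowest in edgeR. In sgCEBPD 3, GNA12 lay below the other 7 libraries (42.0 CPM, against 52.5 to 57.5 CPM in sgCEBPD 1, 2 and 4 and 48.8 to 56.0 CPM in the controls). GNA13, RHOA and ARHGEF1 lay above them there, at 162, 645 and 369 CPM, and averaged 145, 603 and 303 CPM in sgCEBPD 1, 2 and 4 and 136, 564 and 294 CPM in the controls. For RHOA every sgCEBPD library lay above every control, as was so for 4.96% of all genes tested.

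For the 3 receptors with a mean of at least 2 CPM that varied most over the 8 libraries, the genes nearest in pattern were sought among 12368 others, by the root mean square difference of centred log2(CPM + 0.1). For ADGRG3, whose own SD on that scale was 1.69, they were SLPI (0.59), ROS1 (0.71) and UNC13D (0.77). SLPI, an inhibitor of neutrophil proteases, stood at 5.22, 1.51 and 7.41 CPM in sgCEBPD 1, 2 and 4, 11.5 CPM in sgCEBPD 3 and 14.5 to 30.7 CPM in the controls. UNC13D, which acts in granule release, was low in sgCEBPD 2 only, at 4.81 CPM, against 101 to 125 CPM in the other sgCEBPD libraries and 105 to 120 CPM in the controls. For ADGRA3 (SD 0.50) they were COA7 (0.076), CDC25A (0.077) and DUSP2 (0.086), and for ADGRL1 (SD 0.39) FKBP4 (0.064), JADE3 (0.071) and COA7 (0.071). In all 5 of these genes, as in both receptors, sgCEBPD 3 was the lowest library and sgCEBPD 2 the next lowest. The genes were picked for likeness over these same libraries, so the shared order follows from the search.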

How the data were processed

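The authors deposited raw read counts per gene symbol for 8 libraries, not normalised. The submitters' processing notes name FastQC, HISAT2, DESeq2 and build hg38, with no version or role. What counted the reads, with which annotation and whether by strand, is not given in the sources used here. Each column carries the name of 1 library in the labels.

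The deposited counts entered edgeR 4.0.16 in R 4.3.3 (filterByExpr, TMM, robust quasi-likelihood fit with group as the only term), over all genes, for 8 libraries and again without sgCEBPD 3, with Benjamini-Hochberg adjustment and a threshold of 0.05. Log2 fold changes put sgCEBPD over sgControl. The SE is the absolute value divided by the square root of F. CPM use the TMM factors of the 8-library fit. DESeq2 1.42.0, RLE size factors, other filters, a guide number block and libraries left out were tried. The functions were tested on simulated counts. Positions and exon lengths are from GENCODE release 29 (GRCh38), promoters from RefSeq.

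The members and gene lists were chosen with earlier results of these data known. Named genes were the members, other family genes with a mean of at least 1 CPM, called genes of the ligand and signalling lists with CD55, CD81, GNA12, GNA13, RHOA and ARHGEF1, the gene next to ADGRG3, overlapping genes and the 3 nearest patterns. Another listed member and some neighbouring genes are not reported here. TPSAB1, FLRT1, NRXN2, NRXN3, TENM3, other markers and GNAI1 were named after their values were seen. The lists of B cell and of erythroid and megakaryocyte markers, 3 genes with a row each, summed to 4.997 and 58.5 CPM in sgCEBPD 3, 2.36 to 4.13 and 24.9 to 37.9 CPM in the other sgCEBPD libraries and 5.58 to 6.02 and 17.7 to 39.3 CPM in the controls.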

Additional observations from a re-analysis of the deposited data

Results flagged for a closer look

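In 11 of 48 groups of 4 libraries examined, 1 library lay far from the other 3. Chance flags about 1 in 20 such groups, but the genes were chosen with their values known, so the number is not set against chance. In 8 of the 11 it was sgCEBPD 3. Among the members these were ADGRG1 (4.41 CPM, with 0 in the other sgCEBPD libraries), ADGRE1 (7.94 CPM) and ADGRE5 (205 CPM). Among other family genes they were ADGRB1 (29.7 CPM), ADGRD1 (26.7 CPM) and ADGRE4P (11.4 CPM), and among ligands CD55 (116 CPM) and COL4A1 (112 CPM). In the controls, ADGRG3 was lower in sgControl 2 (4.16 CPM) than in the other 3 (4.80 to 4.85 CPM), which is a difference of few counts. ADGRG6 was higher in sgControl 3 (2.17 CPM against 0.870 to 1.05 CPM), and ADGRG1 was at 0 CPM in sgControl 1 and at 1 count in each of the others.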

How the results depend on the processing

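The number of genes called over the whole table, 11 with 8 libraries, was 301 with DESeq2, 20 with no filter, 1 with a replicate block by guide number and 1 at an adjusted p under 0.01. It ranged from 0 (edgeR without sgCEBPD 2, with 1345 genes at an unadjusted p under 0.05) to 283 (without sgCEBPD 3) when a library was left out, and was 1 with sgControl 1, 3 or 4 left out and 6 with sgControl 2 or sgCEBPD 1 left out. Without sgCEBPD 3 the count, 283, was 609 with DESeq2, with 284 higher and 325 lower against 99 and 184, and 40 at an adjusted p under 0.01. Leaving out another library gave 66 (sgControl 1) to 312 (sgCEBPD 4), 142 (sgControl 3), 152 (sgControl 4), 139 (sgCEBPD 1) and 146 (sgCEBPD 2) lying between. ADGRG3 passed without sgCEBPD 3 in DESeq2, with RLE size factors and with no filter, and not with the block (log2 fold change -2.57, adjusted p = 0.0654 in edgeR), under which ADGRA2 had an adjusted p of 0.0503. The filter at a mean of 5 CPM gave no value for ADGRG3 or ADGRG6. For COL4A1 with 8 libraries the log2 fold change turned to -0.42 with the replicate block and to -1.44 without sgCEBPD 3, and leaving out 1 library in turn gave -1.44 to 1.97; the cause was not tested for the block. Deviations of same-numbered libraries from their group means had correlations of -0.0999 to 0.0603 across genes. The sgCEBPD mean includes sgCEBPD 3, so these values cannot decide whether same-numbered libraries were handled together. The sources used here do not say so either. Depth limits ADGRG1, ADGRE1 and ADGRL2 outside sgCEBPD 3, and ADGRG3 and ADGRG6 throughout.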
